A study of Mus musculus with 8 samples.

Results

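The cells described here are neutrophils of the mouse heart in which transcripts of Cxcl3, Spp1 and Il1a outnumbered those of Retnlg and Mmp8. They were 910 of the 20159 deposited barcodes, 908 from hearts after ischemia and reperfusion (IR) and 2 from sham-operated hearts. A barcode stands for a droplet that was called as a cell, and each captured RNA molecule is counted by its unique molecular identifier (UMI). Barcodes with at least 200 genes and at most 30% mitochondrial UMIs were kept without an upper limit on genes, which left 19637. A neutrophil gate then required S100a8 and S100a9 to make up at least 2% of UMIs, C1qa, C1qb and C1qc under 0.05%, Dcn and Col3a1 under 0.15%, and at most 1 UMI of Cd79a and Cd3e together. Within this gate a cell was called activated where its summed Cxcl3, Spp1 and Il1a UMIs exceeded its summed Retnlg and Mmp8 UMIs. It was called a Retnlg/Mmp8 neutrophil where the latter sum was larger. These counts chose the cells, so their levels, and every other difference between the cells so divided, are a description and carry no test.

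All hearts came from male C57BL/6 mice aged 10 to 12 weeks. In the IR group the left anterior descending artery was tied for 30 min and then reopened, and the sham group underwent the same surgery without the tie. Left ventricles were dissociated 6 h after surgery according to the methods of the study, whereas the sample records give the sham group a time of 0 h. Each condition carries 4 sample labels, and the study describes pooling 3 hearts for single-cell sequencing. Whether each label stands for its own pool is not stated. No barcode names its sample, so each condition was 1 library without a replicate check. The sham library held 11620 barcodes and the IR library 8539, and 30 barcode sequences occurred in both. Of these shared barcodes 12 were gated neutrophils of the IR library and 5 were activated.

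Neutrophils are short-lived granulocytes that are made in the bone marrow and are among the first leukocytes to enter injured heart muscle. S100A8 and S100A9 form calprotectin, a protein complex that is abundant in their cytosol. CXCL3, like CXCL1 and CXCL2, is a ligand of the receptor CXCR2, which draws further neutrophils to a site of injury. Spp1 encodes the secreted phosphoprotein osteopontin and Il1a the cytokine interleukin-1α. Retnlg and Mmp8 encode a resistin-like protein and the neutrophil collagenase, which are typical of neutrophils leaving the marrow.

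The 3 neutrophil-attracting chemokine genes of this comparison lie near each other on mouse chromosome 5 (GRCm38). Cxcl3 spans positions 90786103 to 90789600, Cxcl1 90891241 to 90893115 and Cxcl2 90903871 to 90905938, all on the plus strand. Their promoters are shown because Cxcl3 chose most of the cells and Cxcl2 had the highest correlation with the choice. Windows and distances count from each gene's RefSeq start, which differs from the start given above. RefSeq sequence of GRCm38.p6, from 130 to 31 bases before it, holds matches to the NF-kB motif GGGNNTTTCC, searched on both strands and printed in capitals:
Cxcl3, chr5:90785971-90786070, plus strand: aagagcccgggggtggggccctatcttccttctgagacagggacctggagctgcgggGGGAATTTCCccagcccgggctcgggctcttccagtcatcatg
Cxcl2, chr5:90903769-90903868, plus strand: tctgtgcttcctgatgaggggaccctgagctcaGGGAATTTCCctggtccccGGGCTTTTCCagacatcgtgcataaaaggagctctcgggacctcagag
Cxcl1, chr5:90891115-90891214, plus strand: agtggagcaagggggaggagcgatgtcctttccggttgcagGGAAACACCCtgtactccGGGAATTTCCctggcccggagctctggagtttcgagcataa
The same 10 letters, GGGAATTTCC, begin 73 bases before the start of Cxcl3, 97 before that of Cxcl2 and 71 before that of Cxcl1. Cxcl2 has another match beginning 78 bases before its start, and Cxcl1 has one on the minus strand beginning 89 bases before. Such a match is a run of letters and not a measured binding site.

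Gated neutrophils were 196 of 11377 sham barcodes (1.72%, 95% Clopper–Pearson interval 1.49 to 1.98) and 2197 of 8260 IR barcodes (26.6%, 25.6 to 27.6). Activated cells were 2 of the 196 in sham (1.02%, 0.124 to 3.64) and 908 of the 2197 in IR (41.3%, 39.3 to 43.4). In sham 177 gated cells had more Retnlg and Mmp8 (90.3%), and in IR 1245 did (56.7%). Both sums were equal in 17 sham and 44 IR cells, 18 of the latter with neither. All intervals in this text are 95% intervals and cover counting error only, not the spread between hearts. Activated neutrophils were 11.0% of all passing barcodes of the IR library (10.3 to 11.7).

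**Figure D1:**
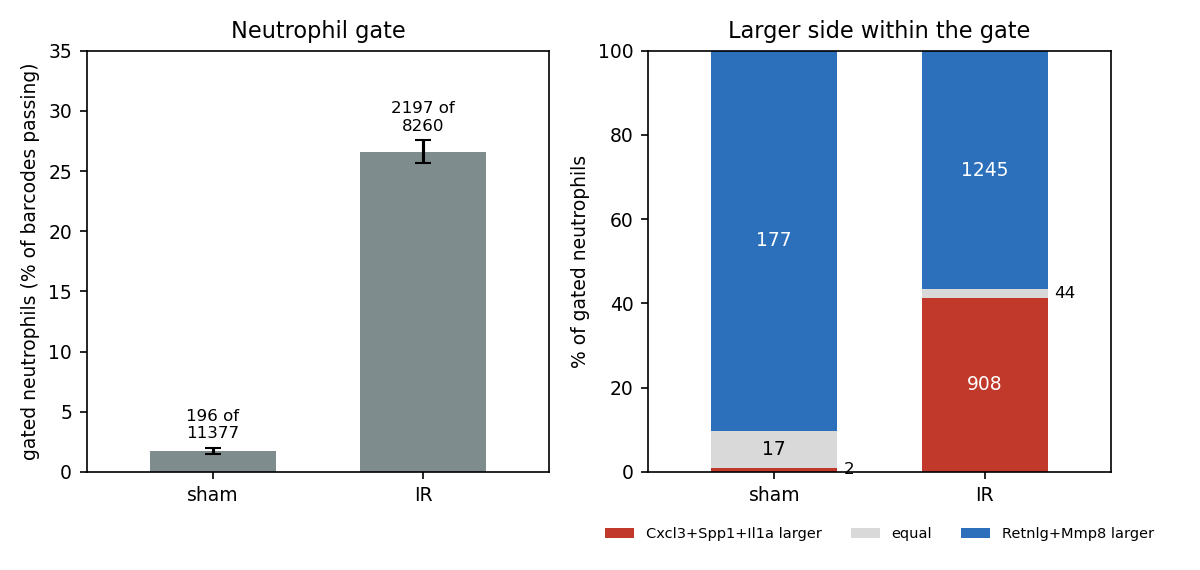
The left panel shows gated neutrophils as a percentage of the barcodes that passed the quality limits, with 95% Clopper–Pearson intervals, and the right panel divides gated cells by the larger side. Activated cells are 2 of 196 in the sham library and 908 of 2197 in the IR library.

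The 2 sham members differed from each other. The first had 2331 UMIs, with 33 of Cxcl3, 1 of Spp1 and 10 of Retnlg, beside 153 of S100a8 and 280 of S100a9 and none of Il1rn or Irg1. The other had 1336 UMIs, of which 18.1% were mitochondrial, and was chosen by 1 UMI of Spp1 alone. With so few cells, activated neutrophils were not compared between sham and IR, and the results that follow are from the IR library, with sham Retnlg/Mmp8 cells given beside them.

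Activated cells of the IR library held 5669442 UMIs, with a median of 4286.5 per cell (range 503 to 74518) and 963.5 genes. Retnlg/Mmp8 cells held 5973898 UMIs, with a median of 4053 and 1072 genes. The median mitochondrial share was 3.50% in the former and 3.04% in the latter. More than 2500 genes were found in 69 activated cells (7.60%) and in 48 Retnlg/Mmp8 cells (3.86%). A total of 174 activated cells held 50% of that group's UMIs. The 177 sham Retnlg/Mmp8 cells were shallower, with a median of 2196 UMIs and 619501 in all. Levels below are counts summed over a group of cells and scaled to a group total of 1000000 (CPM), and a log2 ratio compares the CPM of activated cells with that of Retnlg/Mmp8 cells of the IR library unless another pair is named.

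Cxcl3 carried most of the choice. It was found in 879 activated cells (96.8%), Il1a in 488 (53.7%) and Spp1 in 423 (46.6%), and 246 cells (27.1%) had all 3. Cxcl3 was the only gene of the 3 in 254 cells (28.0%). Its UMIs alone exceeded Retnlg and Mmp8 in 806 cells (88.8%), while those of Il1a alone did so in 178 and those of Spp1 alone in 158. Without Spp1, 46 of the 908 cells (5.07%) would not have been called activated. Cxcl3 is thus the gene that most of these cells share, and Spp1 was found in fewer than 50% of them. Osteopontin transcripts were also concentrated, with 50% of the Spp1 UMIs in 42 cells and at most 291 UMIs in a cell.

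In scaled values, the median activated cell had 88.2 Cxcl3 UMIs per 10000 (quartiles 38.7 and 146), against 4.03 in Retnlg/Mmp8 cells. Median Retnlg was 14.3 per 10000 in activated cells and 112 in the others. The division is a line drawn through cells that mostly held UMIs of both sides. Of the activated cells 773 had at least 1 UMI of Retnlg or Mmp8, and 902 of the 1245 Retnlg/Mmp8 cells had at least 1 of Cxcl3, Spp1 or Il1a. B cells of the IR library, which should lack these transcripts, had Retnlg in 23.3% and Cxcl3 in 32.9% of cells. The part of stray transcripts in such low counts was not tested. Summed levels of Cxcl3 were 9750 CPM in activated, 2469 in IR Retnlg/Mmp8 and 9.69 in sham Retnlg/Mmp8 cells. Spp1 stood at 1482, 289 and 30.7 CPM in the same order, and Il1a at 804, 176 and 3.23. Retnlg was lower in activated cells, at 3232 CPM against 16038 in IR and 12878 in sham Retnlg/Mmp8 cells, and Mmp8 was at 278 against 1146 and 389. The calprotectin genes, which set the gate, were also lower in activated cells. S100a8 was at 30193 CPM against 55722, and S100a9 at 53406 against 86880.

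**Figure D2:**
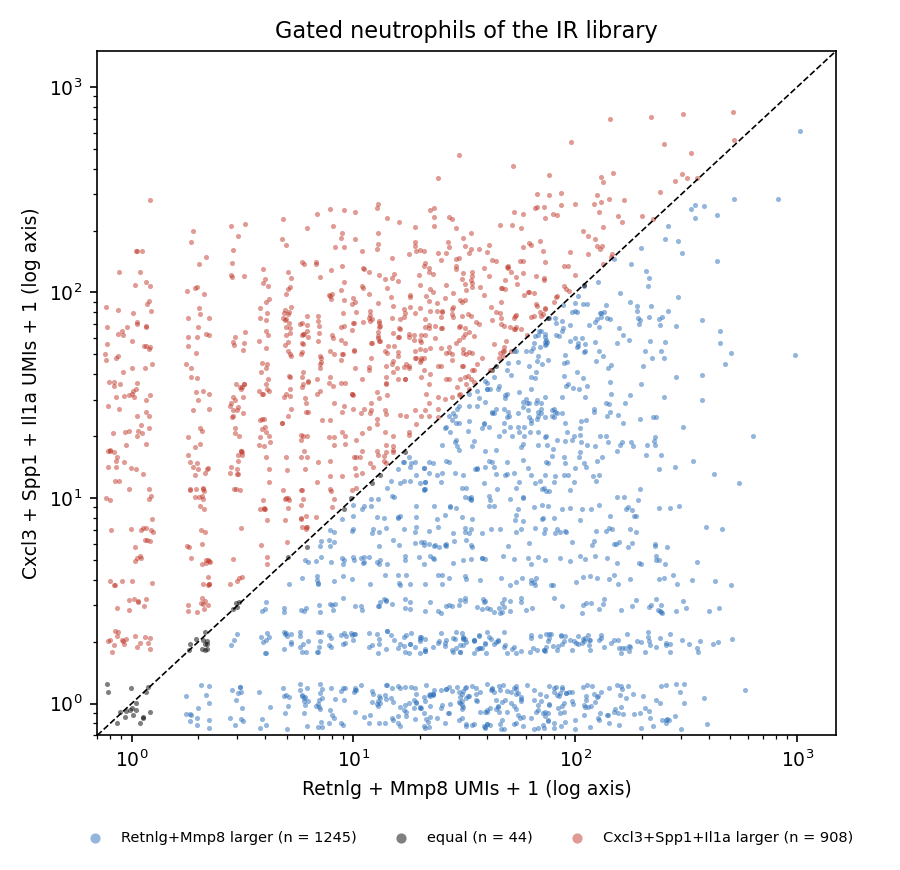
Each point is a gated neutrophil of the IR library, placed by its Retnlg and Mmp8 UMIs and its Cxcl3, Spp1 and Il1a UMIs, each plus 1 with a small random shift, on log axes, and the dashed line marks equality. The 908 activated cells lie above the line and the 1245 Retnlg/Mmp8 cells below it, with cells on both sides close to it.

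Detection was also compared at equal depth, after each cell was thinned to 1000 UMIs, with B cells of the same library as cells that should lack these transcripts. This left out 24 of the 908 activated cells. Cxcl3 was found in 90.7% of the 884 activated cells (88.6 to 92.6), in 47.1% of 1199 Retnlg/Mmp8 cells and in 13.3% of 766 B cells. Before thinning these shares were 96.8%, 66.2% and 32.9%, at median depths of 4286.5, 4053 and 3514.5 UMIs. Spp1 was found in 30.9% of the thinned activated cells, 8.34% of Retnlg/Mmp8 cells and 2.61% of B cells, and Il1a in 31.9%, 7.76% and 1.57%. For Il1rn, a marker that the rule did not use, these shares were 79.8%, 52.6% and 6.4%, and for Irg1 they were 80.1%, 68.9% and 6.01%. For Il1rn and Irg1 the activated shares lay above the B-cell shares. Cxcl3, Spp1 and Il1a chose the activated cells, so their higher shares there are no check. In sham, Cxcl3 was found in 0.578% of 173 thinned Retnlg/Mmp8 cells and 0.0869% of 1151 B cells. B cells of the IR library had 2341 CPM of S100a8 and 3973 of S100a9, which together are below the 2% that the gate required.

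The neutrophil label was checked on genes outside the rule. The granulocyte colony-stimulating factor receptor gene Csf3r was found in 88.0% of activated cells, the chemokine receptor gene Cxcr2 in 90.2%, the lipolysis inhibitor gene G0s2 in 96.6% and the histidine decarboxylase gene Hdc in 96.5%. Thinned to 1000 UMIs, Csf3r was in 52.1% of activated cells and 4.31% of B cells, Cxcr2 in 58.7 and 2.74%, G0s2 in 93.0 and 10.4%, and Hdc in 81.6 and 5.74%. In thinned C1q-low monocytes of the IR library the shares of these genes were 6.71, 1.88, 7.69 and 6.08%. Ly6g, also outside the rule, was in 15.4% of activated cells, and after thinning in 4.64% of them and 0.392% of B cells. Among the other activated-neutrophil markers, Il1rn encodes the interleukin-1 receptor antagonist and Irg1 (Acod1) the enzyme that makes itaconate. Il1rn was found in 94.5% and Irg1 in 94.4% of activated cells. The other markers of the label, S100a8, S100a9, Cxcl3 and Il1a, are part of the rule and do not bear on this check.

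Markers of other cell types were not absent. The gate limited C1q, fibroblast and lymphocyte transcripts, so low sums of macrophage, fibroblast, B-cell and T-cell genes were partly set in advance. The 13 macrophage genes summed to 760 CPM in activated and 730 in Retnlg/Mmp8 cells, against 25660 in C1q-high macrophages of the IR library. None of the 13 was at 0, and at least 1 UMI of them was found in 77.2% of activated and 74.4% of Retnlg/Mmp8 cells. The 12 monocyte genes summed to 5352 CPM in activated and 3390 in Retnlg/Mmp8 cells, against 15856 in C1q-low monocytes. Thbs1 contributed 3804 of the 5352 CPM and was at 2161 CPM in Retnlg/Mmp8 cells, 3413 in C1q-low monocytes and 624 in B cells. Monocyte-list UMIs were found in 93.2% of activated cells, with no gene at 0. Endothelial genes summed to 302 against 118 CPM and of these Fabp4, at 225 against 93.7 CPM, had 610 of its 1277 UMIs in 1 activated cell. Its ratio of 1.26 turned to -0.30 with at most 2500 genes. B-cell genes (8.996 CPM against 11.9) and T- and NK-cell genes (10.4 against 53.6) were near 0, and all 5 mast-cell and basophil genes were at 0 in both groups. Barcodes with a macrophage or monocyte UMI of Csf1r, Adgre1, Mrc1, Mertk or Ccr2 made up 31.7% of activated and 30.8% of Retnlg/Mmp8 cells. Values without those barcodes are given below for a number of the genes and lists, and the part of such transcripts in the other results was not tested.

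Of 1799 genes compared, those with a mean of at least 50 CPM over both groups and outside the rule, 47 (2.61%) were at least 2-fold higher in activated than in Retnlg/Mmp8 cells and 82 (4.56%) at least 2-fold lower. The median over all genes was -0.05 on the log2 scale, with the 10th and 90th percentiles at -0.73 and 0.60. Because S100a8, S100a9 and the other rule genes took 99281 CPM in activated and 162846 in Retnlg/Mmp8 cells, the levels were also scaled with the genes of the gate left out of the total, a setting chosen after the data were seen. That moved the median to -0.16 and the counts to 37 higher and 129 lower. The comparison is the one on which the cells were chosen, so the counts describe the division and support nothing beyond it. Every list count below stands beside these shares of 2.61% higher and 4.56% lower. A count of 1 or 2 genes past 2-fold is no result about its list.

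**Figure D3:**
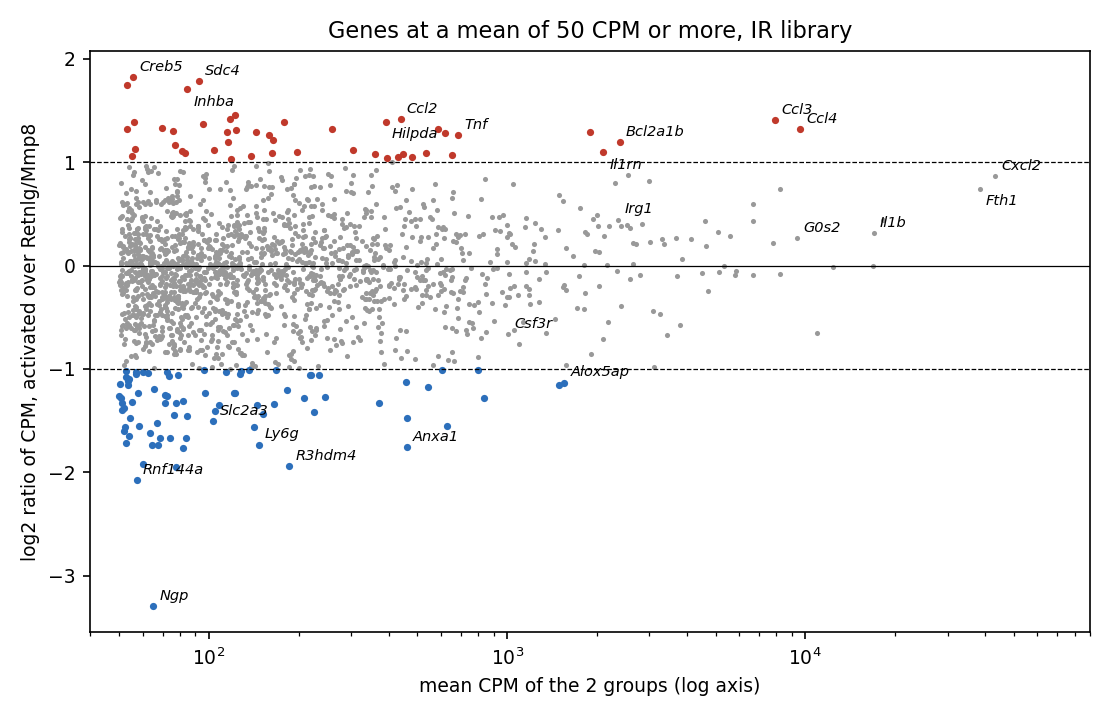
Each point is a gene with a mean of at least 50 CPM, placed by its mean CPM (log axis) and the log2 ratio of activated over Retnlg/Mmp8 cells of the IR library, with dashed lines at 2-fold. The 47 genes above the upper line are red and the 82 below the lower line are blue, and most genes lie between the lines.

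Of the secreted chemokines that were at least 2-fold higher in activated cells, Ccl3 and Ccl4 were the most abundant. Ccl3 (macrophage inflammatory protein 1α) was at 11514 CPM in activated, 4333 in IR Retnlg/Mmp8 and 213 in sham Retnlg/Mmp8 cells, a log2 ratio of 1.41 (1.39 to 1.43) between the IR groups. Ccl4 (macrophage inflammatory protein 1β) was at 13752, 5523 and 720 CPM, a log2 ratio of 1.32 (1.30 to 1.33). These neighboring genes lie on chromosome 11, Ccl3 at 83647844 to 83649355 on the minus strand and Ccl4 at 83662584 to 83664683 on the plus strand. Both were highest in activated and lowest in sham cells, and every later set of 3 levels is given in this order of groups. In single cells, median Ccl3 was 90.1 per 10000 UMIs in activated and 14.9 in Retnlg/Mmp8 cells, and median Ccl4 72.3 and 4.96.

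Cxcl2, the most abundant chemokine transcript of these cells, was at 55878, 30686 and 3797 CPM, a log2 ratio of 0.86 (0.86 to 0.87) that did not reach 2-fold. Cxcl1 was far lower, at 376, 195 and 16.1 CPM (0.95, 0.84 to 1.05). Cxcl1 was also at 469 CPM in B cells of the IR library, so its level in either group of neutrophils was no higher than in cells that should lack it. Ccl6 was at 5657, 4505 and 1593 CPM (0.33). Ccl2 and Ccl7, which attract monocytes through CCR2, had log2 ratios of 1.42 and 1.45, but their levels of 639 and 179 CPM were below those of B cells (1639 and 313) and of C1q-high macrophages (5254 and 2840). Without barcodes that had a macrophage or monocyte UMI, the log2 ratio of Ccl2 was 0.24 and that of Ccl7 0.09. Ccl9 had a log2 ratio of 1.32, which went down to 0.84 when barcodes with over 2500 genes were left out as well.

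Of 9 compared chemokine ligands, 5 were at least 2-fold higher (Ccl2, Ccl3, Ccl4, Ccl7 and Ccl9) and none lower, beside 2.61 and 4.56% of all compared genes. Their median log2 ratio was 1.32 beside -0.05 over all genes. With at most 2500 genes and no macrophage or monocyte UMI, a setting chosen after the data were seen, 3 were higher (Cxcl1, Ccl3 and Ccl4) and the median was 0.84. The receptors for chemoattractants were close to level. Of 10 compared, none passed 2-fold in either direction, with Cxcr2 at -0.22, the chemerin-binding receptor Ccrl2 at 0.80, the complement receptor C5ar1 at 0.31 and the formyl peptide receptors Fpr1 and Fpr2 at 0.20 and 0.00. Cxcr4 had a log2 ratio of 0.15 and was highest in sham, at 751 CPM against 422 in activated cells.

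In the interleukin-1 family, the antagonist gene Il1rn had a larger ratio than Il1b. Il1rn was at 2861 CPM in activated, 1338 in IR Retnlg/Mmp8 and 228 in sham Retnlg/Mmp8 cells, a log2 ratio of 1.10 (1.06 to 1.14). It went to 0.99, just under 2-fold, with the genes of the gate left out of the total, and to at most 1.23 in the other alternatives. In single cells its median was 21.7 per 10000 UMIs (quartiles 10.6 and 39.7) in activated and 6.65 in Retnlg/Mmp8 cells. Il1b was high in both groups, at 18804, 15096 and 7469 CPM (0.32, 0.30 to 0.33). Nlrp3, the sensor of the inflammasome that matures IL-1β, was at 1843, 1149 and 334 CPM (0.68). The decoy receptor gene Il1r2 was at -0.19 and the receptor accessory gene Il1rap at 0.08. Of 9 compared members 1, Il1rn, was at least 2-fold higher and none lower, with a median of 0.13. Irg1 was at 2714, 1994 and 689 CPM, a log2 ratio of 0.44 (0.41 to 0.48), so this marker of the label was common to both IR groups.

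Genes of TNF and of NF-kB feedback were mostly above level without reaching 2-fold. Of 20 compared, 1 was at least 2-fold higher, none lower, and the median was 0.56. The gene past 2-fold was Tnf itself, at 963, 402 and 103 CPM (1.26, 1.19 to 1.33), found in 74.9% of activated and 42.3% of Retnlg/Mmp8 cells. The NF-kB inhibitor gene Nfkbia was at 10296, 6146 and 1404 CPM (0.74), the NF-kB subunit gene Nfkb1 at 0.87, the adaptor gene Traf1 at 0.87, the mitochondrial superoxide dismutase gene Sod2 at 0.89 and the adhesion molecule gene Icam1 at 0.85. Cd14, a co-receptor for lipopolysaccharide, was at 8024, 5328 and 833 CPM (0.59). Without barcodes that had a macrophage or monocyte UMI, Icam1 and Traf1 also passed 2-fold.

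Survival genes of the Bcl2a1 family were among those higher in activated cells. Bcl2a1b, an antiapoptotic relative of Bcl2, was at 3316, 1452 and 203 CPM (1.19, 1.15 to 1.23). Bcl2a1a was at 726, 341 and 50.04 CPM (1.09) and Bcl2a1d at 884, 422 and 116 (1.07). These are near-identical copies, so the division of reads among them is uncertain. Their shared sequence is visible upstream as well, in RefSeq windows of 60 bases from GRCm38.p6, where capitals mark the AP-1 motif TGANTCA. The promoter of Il1rn, which lies at 24336853 to 24351494 on the plus strand of chromosome 2, is shown because it also holds this motif:
Bcl2a1a, chr9:88956770-88956829, plus strand: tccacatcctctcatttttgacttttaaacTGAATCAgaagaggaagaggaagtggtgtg
Bcl2a1b, chr9:89199079-89199138, plus strand: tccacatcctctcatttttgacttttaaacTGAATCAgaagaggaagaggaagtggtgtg
Bcl2a1d, chr9:88731935-88731994, minus strand: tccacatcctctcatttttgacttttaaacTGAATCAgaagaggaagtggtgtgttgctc
Il1rn, chr2:24336689-24336748, plus strand: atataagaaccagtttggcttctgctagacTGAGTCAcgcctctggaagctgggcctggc
The motif began 120, 164, 114 and 141 bases before the respective RefSeq start, which for Il1rn differs from the start given above. The cell-cycle inhibitor gene Cdkn1a had a log2 ratio of 1.05. Mcl1, on which neutrophil survival depends, was level at 3957, 3776 and 2303 CPM (0.07), and Cflar, an inhibitor of caspase-8, was at 0.72. Of 12 compared survival and apoptosis genes, 4 were at least 2-fold higher (Bcl2a1a, Bcl2a1b, Bcl2a1d and Cdkn1a), none lower, and the median was 0.71. Over all compared genes 2.61% were at least 2-fold higher. The Bcl2a1 copies are not separate observations in the list's count or median. With the genes of the gate left out of the total, Bcl2a1b alone of these 4 genes stayed past 2-fold. Without barcodes that had a macrophage or monocyte UMI, Casp8 also passed it, at 1.13 against 0.92.

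Promoters were then described for the whole comparison, over the 250 bases before each gene's RefSeq start, with both strands searched. Of the 47 genes that were higher, 34 had a promoter in the table, as did 56 of the 82 that were lower and 1402 of all compared. The AP-1 letters TGANTCA were in 7 of the 34 (20.6%), in 2 of the 56 (3.57%), in 79 of the 1402 (5.63%) and in 6.87% of 27025 promoters of all genes. The 7 were Il1rn, Ccl9, Ffar2, AA467197 and the 3 Bcl2a1 copies, which share the sequence and are not separate observations. The NF-kB letters GGGNNTTTCC were in 2 of the 34 (5.88%), in 2 of the 56 (3.57%), in 34 of the 1402 (2.43%) and in 1.40% of all promoters. The 2 higher genes were Csf1 and Ccl9. The C/EBP letters TTGCNNAA were in 4 of the 34 (11.8%), in 4 of the 56 (7.14%), in 9.42% of compared and in 9.55% of all promoters. AA467197 and Csf1 were named for these matches after their values were seen.

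Genes of hypoxia and glycolysis lay on both sides of level. Hilpda, an inhibitor of lipid droplet breakdown, was at 567, 216 and 50.04 CPM (1.39, 1.30 to 1.49), and Vegfa, the vascular growth factor, at 77.6, 35.5 and 19.4 (1.13), which went down to 0.58 without barcodes that had a macrophage or monocyte UMI. Egln3, a prolyl hydroxylase of HIF, was at 265, 140 and 19.4 CPM (0.92, or 1.11 without those barcodes). In contrast the glucose transporter gene Slc2a3 was lower, at 53.8, 153 and 184 CPM (-1.5, -1.70 to -1.32), as was the glycolytic enzyme gene Gpi1, at 123, 328 and 299 (-1.42). Ldha was at -0.21 and Pkm at 0.06. Of 18 compared hypoxia and glycolysis genes 2 were at least 2-fold higher and 2 lower, with a median of 0.11.

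For iron and redox genes, Fth1, the ferritin heavy chain, was among the most abundant transcripts, at 48192, 28813 and 8289 CPM (0.74, 0.73 to 0.75), and Ftl1, the light chain, was at 7673, 5687 and 6529 (0.43). The heme oxygenase gene Hmox1 was at 208, 110 and 129 CPM (0.92), with a range of 0.39 to 1.32 over the alternatives. The iron exporter gene Slc40a1 was lower, at 31.04, 95.2 and 211 CPM (-1.62), and the cystine transporter gene Slc7a11 was at 0.40. Of 12 compared members none was at least 2-fold higher and 1 was lower, with a median of 0.44.

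Growth factor and matrix genes were higher in part. The EGF-family growth factor gene Hbegf was at 171, 64.3 and 1.61 CPM (1.41, 1.24 to 1.59), the coagulation factor gene F10 at 259, 99.1 and 37.1 (1.39), the thrombospondin gene Thbs1 at 3804, 2161 and 371 (0.82) and Tgfb1 at 0.92. Inhba, which encodes a subunit of activin, was at 129, 39.7 and 0 CPM (1.70, 1.49 to 1.92). C1q-low monocytes of the IR library had 611 CPM of F10, 187 of Inhba and 93.9 of Hbegf. B cells of that library had 39.8, 78.1 and 19.1, so Inhba in IR Retnlg/Mmp8 cells was below its level in B cells. Of 14 compared matricellular and repair genes 4 were at least 2-fold higher (F10, Hbegf, Vegfa and Vcan) and none lower, beside 2.61 and 4.56% of all compared genes. The median of the list was 0.70 beside -0.05 over all genes. Vcan, a monocyte transcript at 689 CPM in C1q-low monocytes, went from 1.30 to -0.06 without barcodes that had a macrophage or monocyte UMI. Fn1 went from 0.59 to -0.64 in the same way, and Tgfbi from -0.24 to -1.20, whereas Tgfb1 went to 1.07 and the tissue factor gene F3 from 0.89 to 1.28. Without those barcodes, 4 of the list were thus higher (F10, Hbegf, Tgfb1 and F3) and Tgfbi lower. Arg1, which hydrolyzes arginine, was found in 38 activated cells (4.19%) at 48.0 CPM, with 50% of its 272 UMIs in 3 cells, against 2.01 CPM in Retnlg/Mmp8 cells and 0 in sham.

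The 15 genes with the largest ratios were Creb5 (1.82), Sdc4 (1.78), Dab2 (1.75), Inhba (1.70), Ccl7, Ccl2, Hbegf, Ccl3, Fmnl2 (1.39), Hilpda, F10, Eea1 (1.37), Ralgds (1.33), Ccl9 and Traf6 (1.32). Creb5, a transcription factor gene of the CREB family, was at 86.4 CPM in activated, 24.4 in IR Retnlg/Mmp8 and 1.61 in sham Retnlg/Mmp8 cells. Traf6, the adaptor of interleukin-1 and Toll-like receptors, was at 75.5, 30.3 and 9.69. In the IR library Creb5 was at 154 CPM in C1q-high macrophages and 20.1 in C1q-low monocytes, and Traf6 at 10.2 and 23.5. Creb5 and Traf6 are compared here between neutrophils only. Both kept a ratio above 2-fold in the alternatives other than the filter, 1.62 to 2.04 for Creb5 and 1.21 to 1.52 for Traf6. Their mean levels of 55.4 and 52.9 CPM were close to the lowest level compared, which they passed only through activated cells. With the filter at 100 CPM neither is counted. Sdc4 and Dab2, a syndecan and an endocytic adaptor, were at 1359 and 1287 CPM in C1q-high macrophages, against 143 and 81.7 in activated cells. Without barcodes that had a macrophage or monocyte UMI their ratios were -0.07 and 0.29. Among activated cells with over 2500 genes Dab2 was at 196 CPM, and among the rest at 25.7.

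On the lower side, Ngp had the lowest ratio. This gene for a secondary granule protein of immature neutrophils was at 11.99 CPM in activated, 118 in IR Retnlg/Mmp8 and 823 in sham Retnlg/Mmp8 cells (-3.29, -3.68 to -2.93), and its ratio was -3.88 without barcodes that had a macrophage or monocyte UMI. Ngp was found in 3.74% of activated and 17.0% of IR Retnlg/Mmp8 cells. In sham it was found in 12 of the 177 Retnlg/Mmp8 cells (6.78%), and 309 of its 510 UMIs there were in 1 cell. Ly6g, the surface antigen by which mouse neutrophils are sorted, was at 67.9, 226 and 147 CPM (-1.73, -1.90 to -1.57) and was found in 15.4% of activated and 33.3% of Retnlg/Mmp8 cells. The protease inhibitor-like gene Wfdc21 was at 923, 2062 and 1650 CPM (-1.16). Lcn2, the siderophore-binding lipocalin, was at 2090, 4126 and 2542 (-0.98), the gelatinase gene Mmp9 at 383, 749 and 1085 (-0.97), and the haptoglobin gene Hp at 1065, 2075 and 2102 (-0.96), each just short of 2-fold. Without barcodes that had a macrophage or monocyte UMI, Mmp9 and Hp were both at -1.06 and the lysozyme gene Lyz2 went from -0.52 to -1.41. Csf3r was at 778, 1232 and 1185 CPM (-0.66). Not every identity gene was lower, since Hdc was level at 2169 and 2162 CPM (0.00), G0s2 was at 0.27 and Cd177 at 445, 261 and 113 CPM (0.77).

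Of 18 compared identity genes none was at least 2-fold higher and 2 were lower (Ly6g and Wfdc21), with a median of -0.26. Of 7 compared secondary granule genes 1, Ngp, was lower, with a median of -0.52, and with at most 2500 genes and no macrophage or monocyte UMI 3 were. None of 8 compared tertiary granule and secretory genes passed 2-fold (median -0.23), none of 6 compared genes of extracellular traps and the oxidase did (-0.39), and no primary granule gene reached that level. Primary granule genes are transcribed in marrow precursors.

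Some lipid mediator and migration genes were lower. Anxa1, the annexin that limits neutrophil recruitment, was at 210, 712 and 797 CPM (-1.76, -1.85 to -1.67) and was found in 38.3% of activated and 71.5% of Retnlg/Mmp8 cells. Alox5ap, which presents arachidonic acid to 5-lipoxygenase for leukotriene synthesis, was at 973, 2137 and 2036 CPM (-1.13, -1.18 to -1.09), while the cyclooxygenase gene Ptgs2 was at 2082, 1420 and 379 (0.55). Selplg, the P-selectin ligand, was at 469, 839 and 923 CPM (-0.84). The integrin gene Itga4 was at -1.14, or at -1.68 without barcodes that had a macrophage or monocyte UMI, whereas Cd44, a hyaluronan receptor, was at 0.38. Of 7 compared adhesion and migration genes 1 was at least 2-fold lower and none higher, with a median of -0.65, and of 3 compared eicosanoid genes 1, Alox5ap, was lower.

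Among the 15 genes with the lowest ratios were Ngp, Rnf144a (-2.08), Hist1h1c (-1.95), R3hdm4 (-1.94), Fam101b (-1.92), Limd2 (-1.77), Anxa1, Rgs5 (-1.74), Hacd4 (-1.74), Ly6g, Pik3cd (-1.72), Atxn10 and Ccpg1 (each -1.67) and Gng2 (-1.65). Rnf144a, a ubiquitin ligase gene, was at 21.9, 92.4 and 150 CPM, and its ratio was -2.90 with at most 2500 genes. Pik3cd, the leukocyte catalytic subunit of PI3-kinase, was at 24.5, 80.5 and 108 CPM. The ratio of the pericyte gene Rgs5 was 0.01 once both barcodes with over 2500 genes and those with macrophage or monocyte UMIs were left out, and -3.89 with the latter alone left out.

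The remaining lists had few or no genes past 2-fold. Of 19 compared immediate-early genes, Maff (268, 126 and 16.1 CPM, 1.09) was at least 2-fold higher and Fos (531, 1071 and 1585 CPM, -1.01) lower, with a median of 0.25. The ratio of Fos was -0.89 with the calprotectin limit at 1% and -1.55 without barcodes that had a macrophage or monocyte UMI, and C1q-high macrophages had 2985 CPM of it. Of 13 compared transcription factor genes Bhlhe40 (580, 280 and 82.3 CPM, 1.05) and Maff were higher and none lower, with a median of 0.28. With the genes of the gate left out of the total, Bhlhe40 was at 0.94 and Maff at 0.99, so neither passed 2-fold. None of 12 ATF4 and unfolded protein genes (median 0.25, Atf3 at 0.29), 5 heat shock genes (-0.07), 17 lysosome and lipid genes (0.31) and 14 interferon-stimulated genes (0.34) passed 2-fold. Without barcodes that had a macrophage or monocyte UMI, 3 of the interferon-stimulated genes were higher, Ifit1 (1.06), Rsad2 (1.19) and Slfn4 (1.01). Of 9 neutrophil aging genes 1 was lower (Itga4), with a median of 0.15. Of 6 genes of SiglecF-high neutrophils of tumors, Ffar2 (1.06) was higher and Ngp lower, while Siglecf itself was at 5.82 and 5.52 CPM in activated and Retnlg/Mmp8 cells, below the level required.

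**Figure D4:**
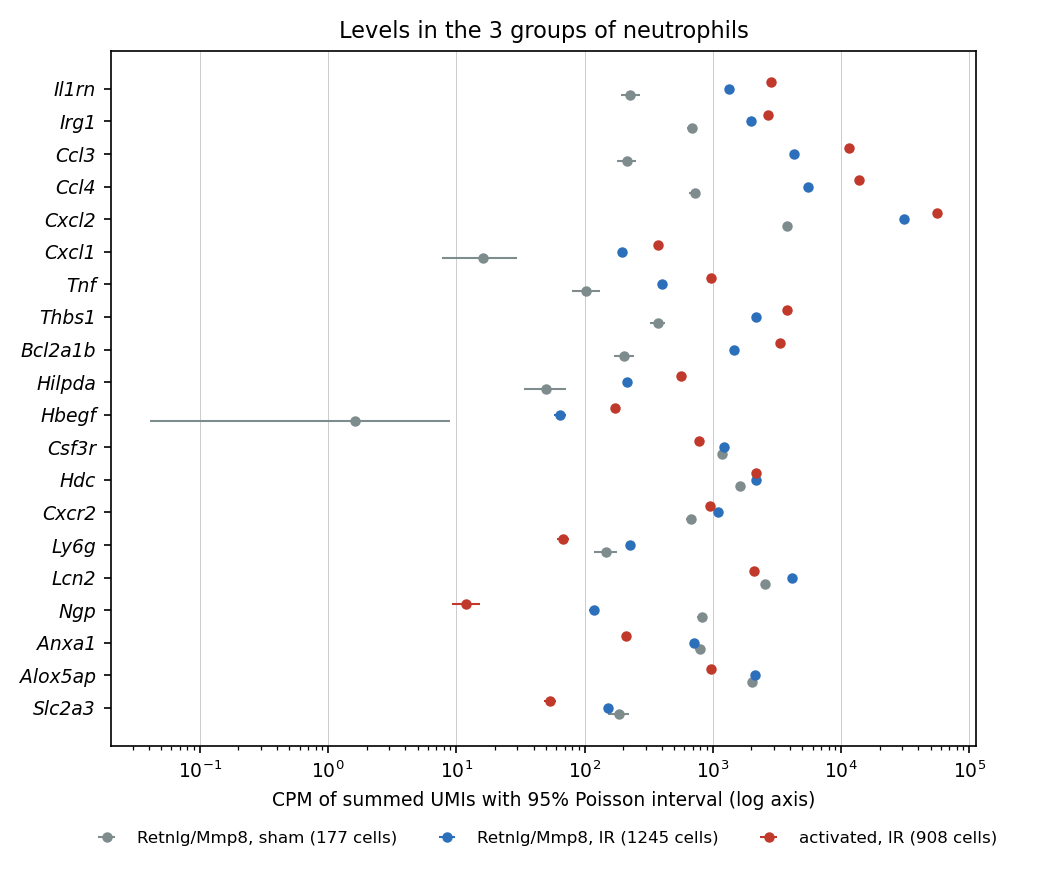
Levels of 20 genes in CPM (log axis) with 95% Poisson intervals are shown for activated cells (red) and Retnlg/Mmp8 cells (blue) of the IR library and Retnlg/Mmp8 cells of the sham library (grey). Il1rn is at 2861, 1338 and 228 CPM in that order, while Anxa1 is at 210, 712 and 797. The sham level of Ngp, 823 CPM, holds 309 of 510 UMIs from 1 cell.

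Levels were also followed along the balance of the 5 genes that divide the cells, as the share of Cxcl3, Spp1 and Il1a in their summed UMIs. Retnlg/Mmp8 cells comprised 343 with a share of 0 and 902 between 0 and 0.5, and activated cells comprised 303 between 0.5 and 0.75, 470 from 0.75 to under 1 and 135 at 1. The balance is the measure that chose the cells. Ccl3 was at 2379, 4830, 9750, 12696 and 13405 CPM along these steps, and Cxcl2 at 21265, 33081, 51143, 58953 and 61565. Il1rn was at 846, 1463, 2675, 2946 and 3313, and Tnf at 205, 452, 853, 1004 and 1290. All 4 genes were higher at each further step.

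Others had their highest level before the last step. Ccl4 was at 15419 CPM from 0.75 to under 1 and at 12567 at 1, Hilpda at 630 and 496, and Thbs1 at 4116 and 2189. Bcl2a1b was at 3563 and 3413, with intervals that overlapped. Anxa1 went from 905 CPM at a share of 0 to 173 at 1, Alox5ap from 2483 to 676, Csf3r from 1630 to 700, and Cxcr2 from 1182 to 866. Median depth was lowest at both ends, at 3453 and 3401 UMIs against 4342.5 to 4619 between them, and the median mitochondrial share was 3.45, 2.93, 2.90, 3.59 and 4.96% along the steps. From the step below 1 to the step at 1, the monocyte receptor gene Ccr2 went from 101 to 4.43 CPM, Dab2 from 117 to 17.7 and Arg1 from 36.7 to 11.1. The part of depth, mitochondrial share and these transcripts in the other levels was not tested.

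**Figure D5:**
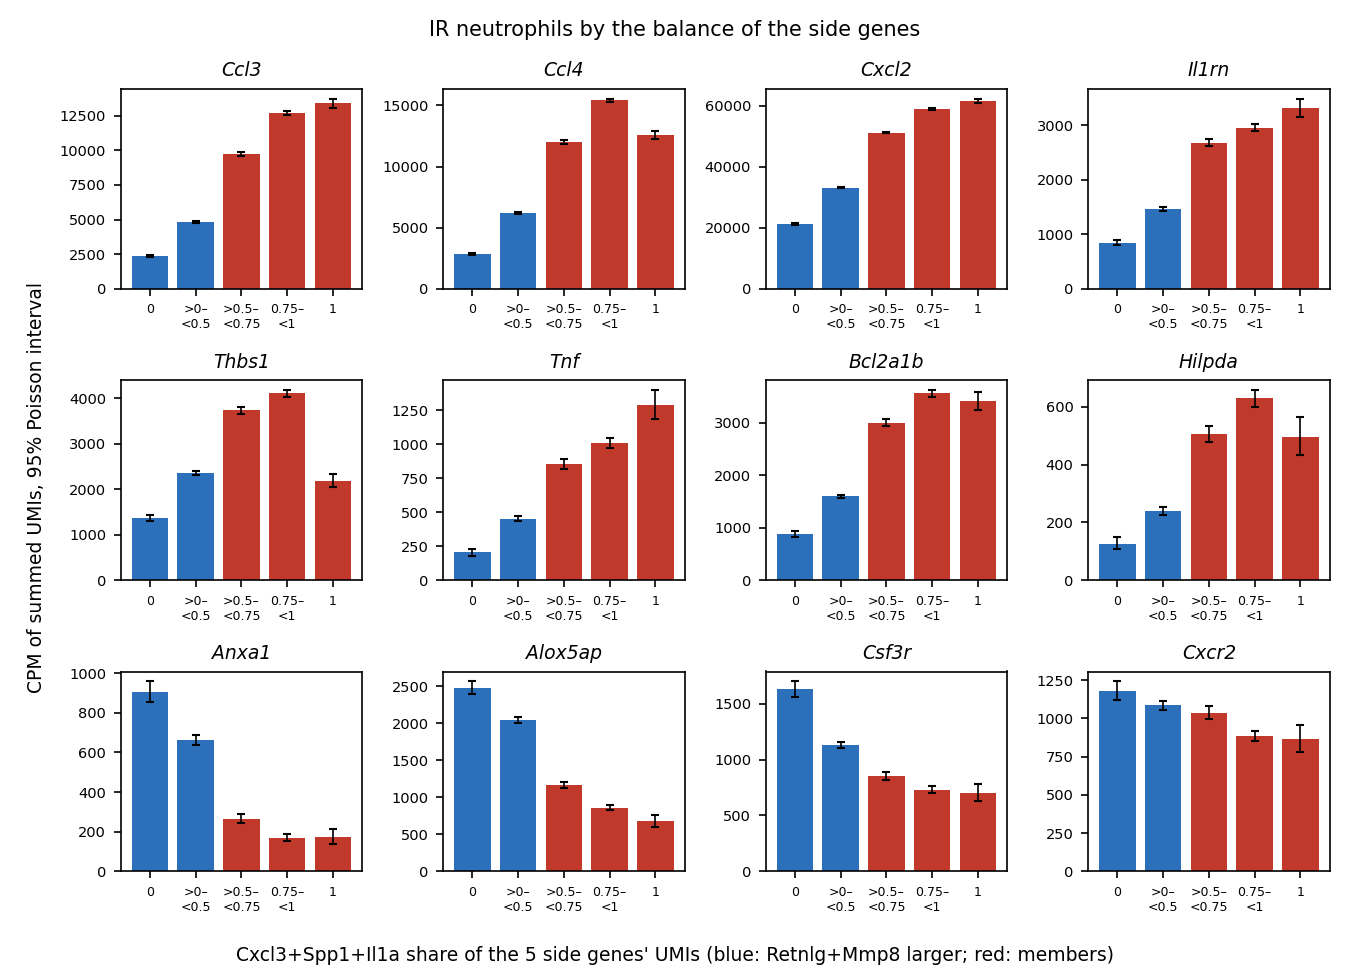
Bars give the CPM of 12 genes with 95% Poisson intervals for IR neutrophils in 5 steps of the Cxcl3, Spp1 and Il1a share among the UMIs of the 5 dividing genes, blue for Retnlg/Mmp8 cells and red for activated cells. Ccl3 goes from 2379 to 13405 CPM and Anxa1 from 905 to 173.

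In Il1rn and Ccl3, cells just inside and just outside the line were closer to each other than the groups as a whole. The 49 activated cells that were inside by 1 UMI had 2591 CPM of Il1rn and 9319 of Ccl3, and the 33 Retnlg/Mmp8 cells outside by 1 UMI had 2276 and 8091. The 44 cells with equal sums, 18 of them with no UMI on either side, were below both, at 1435 and 6535. At the calprotectin limit, the 100 activated cells with 2 to 3% of S100a8 and S100a9 had 2430 CPM of Il1rn, 673 of Csf3r, 104 of the macrophage receptor gene Csf1r and 128 of Dab2. The 102 cells with 1 to 2% that otherwise met the rule had 1741, 519, 163 and 267. Of cells with under 1%, 970 met the rest of the rule, and their Il1rn and Csf3r were at 615 and 69.5 CPM.

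Activated cells were divided by whether a Spp1 UMI was left after thinning to 1000 UMIs, 265 with one and 619 without, and the levels that follow are from their full counts. The former held 2271739 UMIs, with a median of 4653 per cell, and the latter 3379298, with a median of 4176. Cxcl3 was at 9930 CPM in the former and 9646 in the latter, and Il1rn at 3076 and 2719. Hilpda was at 757 against 442, Thbs1 at 4587 against 3287, Arg1 at 85.4 against 22.5 and Dab2 at 139 against 43.8. Ccr2 was at 111 against 59.2 CPM and Csf1r at 62.5 against 60.7, and the part of depth and of such transcripts in these values was not tested. Spp1 was part of the rule, so this too is a description.

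The genes whose scaled level went most closely with the difference between both sides over the 2197 gated IR cells were Cxcl2 (Pearson r 0.58), Ccl3 (0.55), Basp1 (0.53), Bcl2a1b (0.52), Cd9 (0.52), Fth1 (0.48), Il1rn (0.48), Nfkbia (0.45), Srgn (0.45) and Bhlhe40 (0.42). Basp1, a membrane-bound signaling protein gene, was at 2690, 1097 and 160 CPM (1.29). On the other side were Tmsb4x (-0.56), Alox5ap (-0.55), Taldo1 (-0.54), Pglyrp1 (-0.52) and Anxa1 (-0.49). Pglyrp1, a granule protein that binds bacterial peptidoglycan, was at 319, 939 and 1441 CPM (-1.56). These cells share 1 library and differ in depth, and the correlations are given as a description.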

How the data were processed

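Single-cell libraries were made with the 10x Single Cell 3′ chemistry. Per the file headers the deposited counts came from Cell Ranger 3.1.0, and the labels name mm10 as the reference. The deposited values are raw UMI counts, in 1 matrix for sham and 1 for IR, with 27998 genes, of which 121 entries share a symbol and were kept apart by identifier. No doublet caller was run, since cells with over 2500 genes were kept by the rule. The activated cells and the gene lists were chosen with earlier results of these data known.

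UMIs were summed over each group of cells and scaled to CPM. Intervals of CPM are exact Poisson, those of log2 ratios exact conditional binomial and those of shares Clopper–Pearson, at 95%, and cover counting error only, because UMIs of 1 library give no spread between hearts. With 1 library per condition no test was run and no p-value is given. A gene was counted where it passed 2-fold at a mean of at least 50 CPM. Genes named are the 15 with the largest ratio in each direction (without mitochondrial, ribosomal and unnamed gene models), the genes of the lists, Il1rn and Irg1, and the 10 most correlated with the difference of the sides in each direction. Of 434 listed genes 424 were in the table, and the others, such as Itgam and Cebpd, were not analysed here. A few genes that the rule would name are not reported here. Gates for reference cells required at least 0.5% C1q UMIs (macrophages), under 0.05% C1q with 5 UMIs of Csf1r, Fn1 and Ccr2 (monocytes) and 3 B-cell UMIs (B cells). Alternatives moved the calprotectin, C1q and mitochondrial limits, set an upper limit on genes, and changed the sides, the filter, the scaling and the depth, while the limits on fibroblast and lymphocyte transcripts and on the fewest genes were not moved. The functions were tested on simulated data. Scripts ran in Python 3.11.15 (matplotlib 3.10.9, pandas 2.3.3, scipy 1.17.1, numpy 2.4.6). Sequences are from RefSeq on GRCm38.p6 and gene positions from a GRCm38 annotation, the assembly of mm10.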

Additional observations from a re-analysis of the deposited data

How the results depend on the processing

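Each condition is 1 library, so every interval covers counting error only and no difference has a replicate check. No paired analysis was possible because barcodes carry no sample, and for the same reason samples were not left out in turn. The planned comparisons within sham, and of activated cells between IR and sham, gave no value, since only 2 sham cells were activated. Depth limits genes under about 50 CPM.

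The activated share of gated IR neutrophils was 41.3%. It was 34.8% with calprotectin at 5% or more, 39.2% without Spp1, 37.8% with a margin of 3 UMIs and 38.9% after thinning, and the sham share stayed between 0.510 and 1.82%. The gate held 26.6% of IR barcodes, and 42.6% with at most 2500 genes, 28.7% with at most 10% mitochondrial UMIs, 28.4 and 21.4% with calprotectin at 1 and 5%, 21.2% with no C1q UMI and 33.7% without macrophage or monocyte UMIs. In sham it held 1.72%, and 1.42% with calprotectin at 5%, 1.35% with no C1q UMI and 2.12% without macrophage or monocyte UMIs.

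Against 82 genes at least 2-fold lower, there were 133 with at most 2500 genes, 151 without macrophage or monocyte UMIs, 143 with both, 125 for the mean of the cells' own CPM, 129 with the genes of the gate out of the total, 175 and 34 with filters at 20 and 100 CPM and 1375 with no filter. The filters change the number of genes counted (1799, 3300, 1057 and 11283); the cause of the other shifts was not tested. Against 47 higher, there were 78 at 20 CPM and 768 with no filter, and 33 to 65 otherwise. Without macrophage or monocyte UMIs 37 of the 47 and 75 of the 82 genes were counted again. The settings with both limits and with the gate genes out of the total were chosen after the data were seen.

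For 260 genes followed, 2083 of 3116 values moved by less than their interval, 1024 moved further and 9, of genes past 2-fold, turned sign. Counting genes of any ratio, 126 values of 45 genes turned sign. Fabp4 (1.26) turned to -0.30 with at most 2500 genes, -0.68 without Spp1, -0.061 without macrophage or monocyte UMIs, -1.72 after thinning and -0.27 with both limits. Sdc4 (1.78) turned to -0.074 and Vcan (1.30) to -0.065 without those UMIs, Vcan to -0.18 and Rgs5 (-1.74) to 0.013 with both limits, and the cause was not tested.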

Other observations

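Of 25 listed interferon-stimulated genes, 23 were highest in the sham Retnlg/Mmp8 neutrophils. Other lists varied, with 20 of 33 hypoxia and glycolysis, 8 of 12 heat shock and 0 of 14 chemokine ligand genes highest there. The share over all genes was not counted. Interferon-stimulated genes summed to 10791 CPM in activated and 12695 in Retnlg/Mmp8 cells of the IR library and to 29703 in Retnlg/Mmp8 cells of sham. Isg15, a ubiquitin-like protein, was at 520, 352 and 1960 CPM in that order, Ifit3 at 21.9, 20.1 and 880, the transcription factor gene Irf7 at 58.7, 49.0 and 767, and Ifitm3 at 1430, 1656 and 7525. The sham cells number 177 from 1 library, with no replicate check.

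The granule genes Camp and Ltf were at 2.47, 2.68 and 668 CPM and at 13.6, 8.20 and 313, both below the level at which the IR groups were compared. In sham 259 of the 414 Camp UMIs were in 1 cell, and 4 of the 177 cells had a Camp UMI and 3 a Ltf UMI. Of these groups Lcn2, in contrast, was highest in IR Retnlg/Mmp8 cells. So was Mmp8, but the rule used that gene to choose those cells. Sham Retnlg/Mmp8 cells also had the highest sums of macrophage (1469 CPM) and dendritic-cell genes (1151 CPM), and their part in these levels was not tested.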
